A study of Homo sapiens with 2 samples.

Results

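S9.6 peaks at the ends of antisense long non-coding RNA (lncRNA) genes were examined in A549, an established human lung cancer line. A peak was included when at least 1 base of it lay within 1000 bp of either end of an lncRNA gene on chromosomes 1 to 22 whose RefSeq symbol ends in -AS and a number. This gave 747 peaks, 1.66% of the 44994 peaks on these chromosomes and part of a list of 47810, and together they covered 0.619 Mb. They lay at 607 of the 1974 antisense genes. The series holds 2 CUT&Tag libraries of wild-type A549 cells, 1 made with the antibody S9.6, which binds hybrids of RNA and DNA, and 1 with IgG as the antibody control. Peaks of the S9.6 library are described, whereas IgG was not analysed here. There was no treatment and no replicate, so libraries were not compared and no test across genes was run. All 95% intervals are Wilson intervals, which cover counting error in this library only. Genes are not replicates, and neighbouring genes can share a peak.

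An R-loop forms when an RNA pairs with its DNA template and leaves the other DNA strand single. In CUT&Tag, the antibody tethers a transposase that tags the DNA nearby, so a peak marks where the tagged fragments pile up and carries no strand. An antisense lncRNA is transcribed from the strand opposite a named partner gene, usually a protein-coding one. Some start beside the partner's promoter and run outward, others begin within the partner or past its far end and run back through it. Active promoters that fire in both directions therefore serve both genes of such a pair, and R-loops are known to be common at promoters rich in CpG dinucleotides. Because the peaks have no strand, a peak beside both genes cannot be given to either.

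The RefSeq promoter windows of 6 antisense genes are shown because they lay under the highest peaks, and those of ADAMTS9-AS2 and DLX6-AS1 because no peak was listed at either end of these genes. Each window runs from 250 bases before to 50 bases after an annotated start in GRCh38.p14, read 5′ to 3′ on the antisense gene's own strand, with runs of at least 3 G in capitals. The windows are chr3:9396574-9396873 on the minus strand for THUMPD3-AS1, chr20:33994318-33994617 on the minus strand for RALY-AS1 and chr19:42396898-42397197 on the plus strand for LIPE-AS1. Those of the other genes under a peak are chr2:239401186-239401485 on the plus strand for HDAC4-AS1, chr19:40444267-40444566 on the plus strand for SERTAD3-AS1 and chr1:151281880-151282179 on the minus strand for ZNF687-AS1. Without a peak are chr3:64684620-64684919 on the plus strand for ADAMTS9-AS2 and chr7:97014016-97014315 on the minus strand for DLX6-AS1.
THUMPD3-AS1: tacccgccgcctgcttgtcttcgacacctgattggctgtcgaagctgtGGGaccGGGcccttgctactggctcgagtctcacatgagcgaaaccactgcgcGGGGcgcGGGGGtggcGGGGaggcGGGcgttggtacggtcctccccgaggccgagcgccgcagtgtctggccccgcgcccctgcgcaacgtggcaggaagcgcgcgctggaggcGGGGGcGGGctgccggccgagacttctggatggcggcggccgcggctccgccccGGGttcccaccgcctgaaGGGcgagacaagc
RALY-AS1: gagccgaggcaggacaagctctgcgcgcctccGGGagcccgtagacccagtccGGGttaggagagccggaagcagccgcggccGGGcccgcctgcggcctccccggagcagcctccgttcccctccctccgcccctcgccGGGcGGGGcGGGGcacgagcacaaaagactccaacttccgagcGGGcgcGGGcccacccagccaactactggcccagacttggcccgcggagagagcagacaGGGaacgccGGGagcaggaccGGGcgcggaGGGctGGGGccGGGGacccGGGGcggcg
LIPE-AS1: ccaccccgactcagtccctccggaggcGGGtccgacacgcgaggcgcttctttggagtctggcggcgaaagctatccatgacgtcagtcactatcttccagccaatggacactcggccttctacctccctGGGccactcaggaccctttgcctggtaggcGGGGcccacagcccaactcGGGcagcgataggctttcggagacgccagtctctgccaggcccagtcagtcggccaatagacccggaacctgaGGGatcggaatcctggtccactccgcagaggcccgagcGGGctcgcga
HDAC4-AS1: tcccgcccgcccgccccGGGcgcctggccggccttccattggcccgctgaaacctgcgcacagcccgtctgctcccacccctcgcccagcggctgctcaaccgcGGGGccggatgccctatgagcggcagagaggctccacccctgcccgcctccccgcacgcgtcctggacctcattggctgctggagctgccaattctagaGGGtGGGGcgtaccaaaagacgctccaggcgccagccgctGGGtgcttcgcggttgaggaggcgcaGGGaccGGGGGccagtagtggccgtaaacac
SERTAD3-AS1: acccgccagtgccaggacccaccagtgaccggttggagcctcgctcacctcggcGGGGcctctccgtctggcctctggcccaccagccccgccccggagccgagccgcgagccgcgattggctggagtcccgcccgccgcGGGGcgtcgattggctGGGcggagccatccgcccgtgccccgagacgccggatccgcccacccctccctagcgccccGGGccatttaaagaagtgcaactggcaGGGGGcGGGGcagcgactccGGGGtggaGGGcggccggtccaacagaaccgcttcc
ZNF687-AS1: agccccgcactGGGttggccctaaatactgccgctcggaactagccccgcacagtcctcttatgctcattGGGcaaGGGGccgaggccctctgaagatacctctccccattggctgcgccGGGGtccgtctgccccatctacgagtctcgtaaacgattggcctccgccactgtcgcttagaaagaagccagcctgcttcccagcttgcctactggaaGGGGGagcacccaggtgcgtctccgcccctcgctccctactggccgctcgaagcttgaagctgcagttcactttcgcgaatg
ADAMTS9-AS2: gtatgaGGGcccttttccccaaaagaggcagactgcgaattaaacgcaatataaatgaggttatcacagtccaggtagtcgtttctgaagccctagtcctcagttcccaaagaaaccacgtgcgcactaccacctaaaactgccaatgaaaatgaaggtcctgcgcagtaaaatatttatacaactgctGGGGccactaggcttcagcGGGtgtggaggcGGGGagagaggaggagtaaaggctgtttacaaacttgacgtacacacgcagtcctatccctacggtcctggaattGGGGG
DLX6-AS1: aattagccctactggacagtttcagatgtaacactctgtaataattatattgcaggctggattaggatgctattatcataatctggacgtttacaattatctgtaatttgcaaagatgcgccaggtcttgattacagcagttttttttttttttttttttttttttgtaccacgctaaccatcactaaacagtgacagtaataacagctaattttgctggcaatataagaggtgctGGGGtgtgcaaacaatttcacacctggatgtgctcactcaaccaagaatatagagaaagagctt

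GC content was 73.0% in the THUMPD3-AS1 window, 76.0% at RALY-AS1, 64.7% at LIPE-AS1, 71.3% at HDAC4-AS1, 74.3% at SERTAD3-AS1 and 61.7% at ZNF687-AS1. It was 49.7% at ADAMTS9-AS2 and 36% at DLX6-AS1. All of these windows under a peak were thus richer in G and C than either window without one. Both windows without a peak lay under the median of all antisense windows without one, which was 52.3%. The RALY-AS1 window held 15 runs of at least 3 G, and the DLX6-AS1 window held 1. The THUMPD3-AS1 and RALY-AS1 windows matched the G-quadruplex pattern on the gene's own strand. Those of HDAC4-AS1 and SERTAD3-AS1 matched it on the other strand, and the remaining 4 did not match on either.

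Antisense genes carried a peak at an end in 607 of 1974 cases (30.7%, 95% interval 28.8 to 32.8). The same share was 23.0% over all 56756 genes of the RefSeq table on these chromosomes, 18.3% over all lncRNA genes and 16.7% over lncRNA genes with other kinds of names. Protein-coding genes stood at 40.9%. Among lncRNA genes, those named -DT, which are transcribed divergently from a neighbour's promoter, had a peak in 286 of 580 cases (49.3%, 45.3 to 53.4). LINC genes, which lie between other genes, had one in 305 of 2264 (13.5%, 12.1 to 14.9). Antisense genes thus lay between the divergent and the intergenic lncRNA genes, and their interval met neither of those intervals. A further 262 antisense genes (13.3%) had a peak over the gene span and none at an end, and 869 (44.0%) had a peak in either place.

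Peaks sat at the starts of antisense genes more often than at their ends. The strand was known for 1479 of the 1974 genes, from the RefSeq promoter table. Of these, 431 (29.1%, 26.9 to 31.5) had a peak within 1000 bp of the start, against 28.7% of all genes with a known strand and 15.9% of the other lncRNA genes. At the 3′ end the count was 151 (10.2%, 8.77 to 11.9), against 9.93% of all genes and 7.05% of the other lncRNA genes. The end share depended most on the window, with 6.56% at 500 bp and 16.9% at 2000 bp, and it was also 6.56% with the peaks above the median total signal and 6.69% with those of maximum coverage 3 or more. A peak at the start alone was found for 337 genes, at the end alone for 57 and at both for 94. Divergent lncRNA genes had shares of 49.7% at the start and 10.7% at the end, LINC genes 11.8% and 5.40%, and protein-coding genes 36.8% and 11.8%. Classes therefore differed by more at starts than at ends. In short antisense genes the windows at the start and the end meet: among genes of up to 2000 bp the start share was 34.3% and the end share 27.1%, whereas among genes over 50000 bp they were 27.4% and 4.25%.

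**Figure D1:**
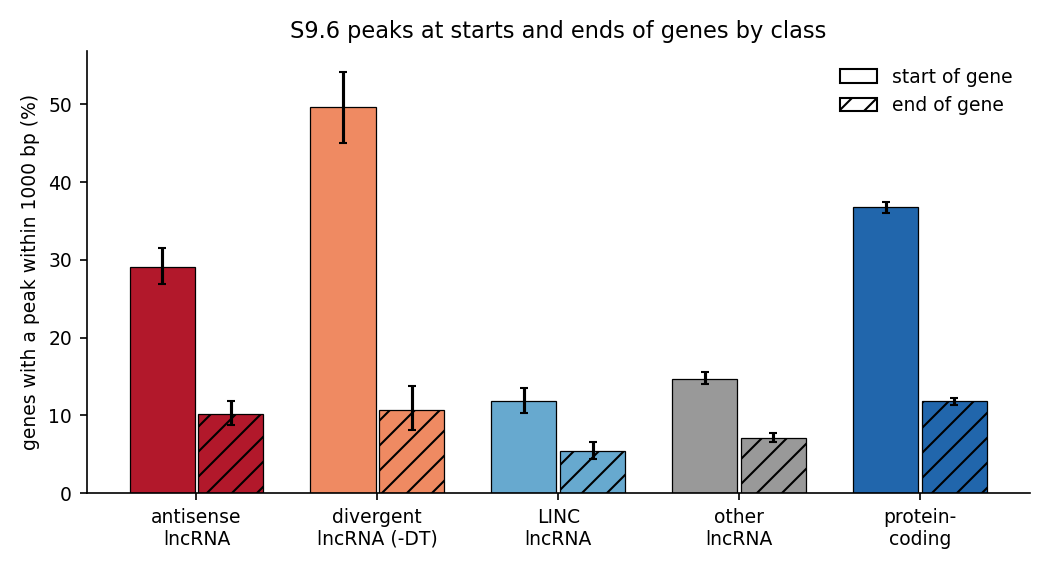
Share of genes (%) with an S9.6 peak within 1000 bp of the start (plain bars) or of the end (hatched bars), for 5 gene classes with known strand, with 95% Wilson intervals. Antisense lncRNA genes reached 29.1% at starts and 10.2% at ends, between divergent lncRNA genes and LINC genes at starts.

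The partner and its position were read from the names. A partner with the symbol before -AS was found on the same chromosome for 1949 genes, of which 1932 partners were protein-coding. Strand was known for both genes of 1267 pairs, and 1264 of these lay on opposite strands. The exceptions were FAM131B-AS2, MAP7-AS1 and TUB-AS1, annotated on the same strand as the gene they are named after. By span, 880 antisense genes lay wholly inside the partner and had a peak at an end in 20.1% of cases (17.6 to 22.9). Partial overlaps stood at 38.4% of 808 genes (35.1 to 41.8), and genes apart from the partner at 45.6% of 193 (38.7 to 52.6). Antisense genes inside the partner thus carried peaks less often than those apart from or partly overlapping it.

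What lay beside the antisense start went with how often a peak was found there. Where the start of the named partner was within 1000 bp, 154 of 289 antisense starts had a peak (53.3%, 47.5 to 59.0). Where the start of some other protein-coding gene on the opposite strand was within that distance, 55 of 93 had one (59.1%, 49.0 to 68.6). Starts near another protein-coding end, either a 3′ end or an end of unknown strand, had 27 of 79 (34.2%, 24.7 to 45.2). Starts with no protein-coding end within 1000 bp had 193 of 1011 (19.1%, 16.8 to 21.6). The named partner and an unrelated neighbour thus gave like shares, with intervals that overlap. The remaining 7 starts lay by the start of another protein-coding gene on the same strand, and 2 had a peak. Among antisense starts with a peak, the highest one reached a maximum coverage of at least 5 in 44.8% beside partner starts. It did so in 47.3% beside starts of other opposite-strand genes, against 23.8% where there was no protein-coding end.

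The share also differed with the distance between the starts of an opposite-strand pair, though not steadily. It was 56.7% for 97 pairs whose starts lay at most 200 bp apart and 61.8% for 102 pairs at 201 to 500 bp. It was 40.2% at 501 to 1000 bp, 31.8% at 1001 to 2000 bp, 22.4% over 2000 and up to 5000 bp, 27.6% at 5001 to 20000 bp and 27.3% at 20001 to 100000 bp. The intervals of these last 4 overlap, so no order among them was resolved. Beyond 100000 bp, 13.3% of 347 antisense starts had a peak (10.1 to 17.2), while 23.9% of their partners' starts did (19.7 to 28.7). At shorter distances the antisense and the partner start had nearly the same share, and a peak near both counts for each. Of the pairs with starts within 1000 bp, 94 had the antisense start upstream of the partner, so that the genes diverge, and 56 of these starts had a peak (59.6%, 49.5 to 68.9). The other 197 began inside the partner, so that the first parts of both genes overlap, and 99 had a peak (50.3%, 43.3 to 57.2). These intervals overlap.

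**Figure D2:**
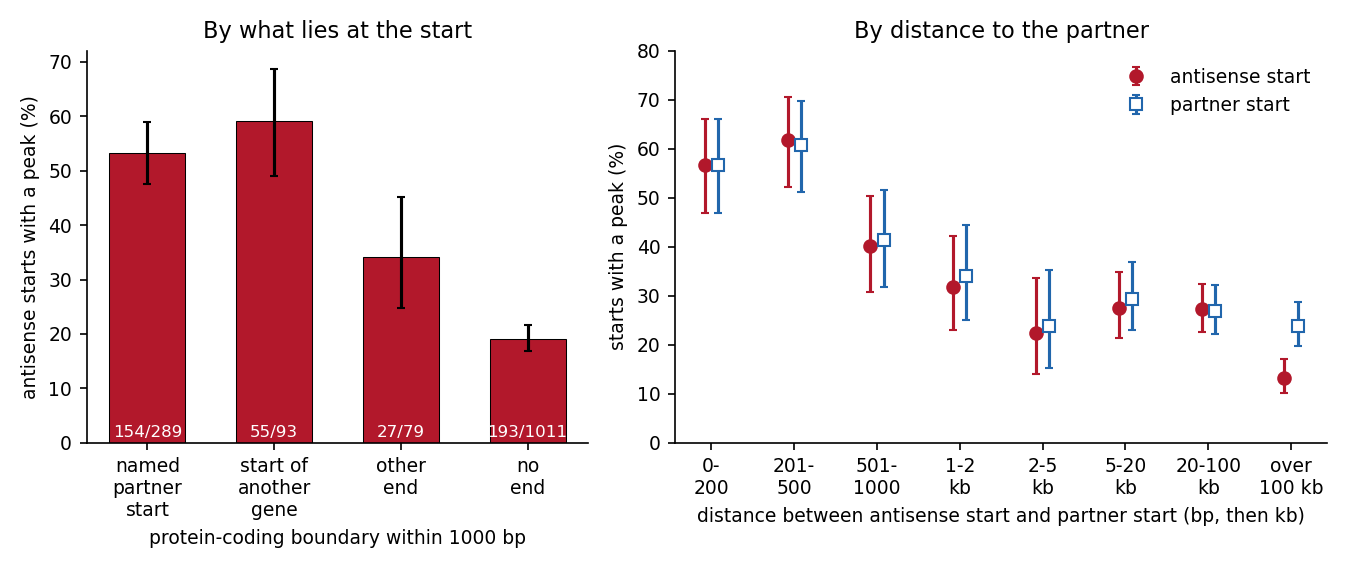
Share of antisense starts (%) with a peak within 1000 bp, by the protein-coding boundary beside them (left, counts in the bars) and by the distance to the partner's start (right, filled circles, with the partner's own start as open squares), with 95% Wilson intervals. The share is 53.3% beside the named partner's start, 59.1% beside another gene's start on the opposite strand and 19.1% with no protein-coding end within 1000 bp.

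Antisense starts away from protein-coding gene ends carried peaks more often than LINC and other lncRNA starts, and less often than divergent lncRNA starts. With no protein-coding end within 2000 bp, 148 of 867 antisense starts had a peak (17.1%, 14.7 to 19.7), against 10 of 27 divergent lncRNA starts (37.0%, 21.5 to 55.8), 159 of 1477 LINC starts (10.8%, 9.28 to 12.4) and 574 of 6286 starts of other lncRNA genes (9.13%, 8.44 to 9.87). Being away from gene ends does not place a start outside genes: over all distances to other genes, 725 antisense starts lay inside the partner and over 1000 bp from its start, and 19% of them had a peak (16.3 to 22.1). How far lying inside a gene goes with these shares was not tested. Within 1000 bp of a protein-coding end the antisense share was 50.9%, against 50.4% for divergent lncRNA genes. The 3′ ends of antisense genes behaved likewise by place: within 1000 bp of the partner's start 23 of 59 had a peak (39.0%, 27.6 to 51.7), and farther off 104 of 1205 (8.63%, 7.17 to 10.4).

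Of the 747 peaks, 393 (52.6%) also came within 1000 bp of a protein-coding gene's start or end, as did 18.3% of all peaks on these chromosomes, and 312 (41.8%) did so for the named partner. The other 354 peaks lay at no protein-coding end. Their summit, the middle of the region of highest coverage, fell inside a protein-coding gene in 284 cases (80.2%) and outside any in 70. Only 3 peaks served more than 1 antisense gene, and 65 reached both ends of the same antisense gene.

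Peaks at antisense genes had a higher median height than the other peaks, most so where a protein-coding end lay beside them. The maximum coverage is the highest pile-up of fragments in a peak, a whole number that the authors' caller wrote. Its median was 3 at antisense genes (quartiles 2 and 5, range 2 to 21), against 2 in the other 44247 peaks (quartiles 2 and 3, highest 1953). A maximum of at least 10 was reached by 29 of the antisense peaks (3.88%), against 1.35% of the others. Antisense peaks that also touched a protein-coding end had a median of 4, and those at no protein-coding end a median of 3. The remaining peaks at protein-coding ends had a median of 3 (quartiles 2 and 5), those at divergent lncRNA ends 4 and those at LINC ends 3. Antisense peaks had thus the same quartiles as peaks at protein-coding ends in general. The median total signal, the coverage summed over the peak, was 1214 at antisense genes and 985 elsewhere, and the median width was 716 bp and 685 bp. The list holds no total under 745, so this value bounds the weakest peaks of both sets, and the height of a peak bears on whether it was listed at all.

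**Figure D3:**
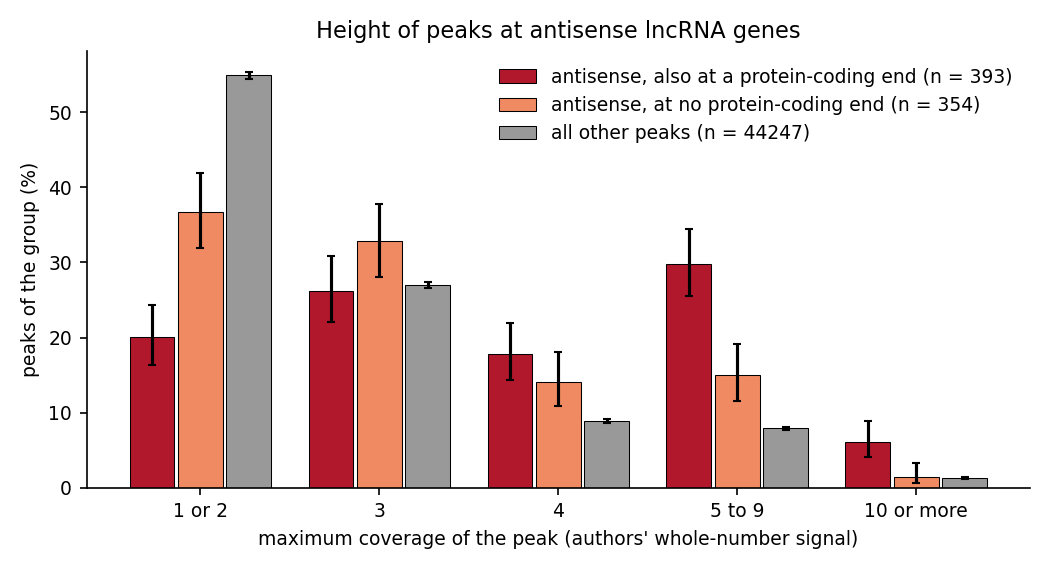
Share of peaks (%) by maximum coverage, for antisense peaks that also touch a protein-coding end, antisense peaks that touch none, and all other peaks on chromosomes 1 to 22, with 95% Wilson intervals. A maximum of 5 to 9 was found in 29.8%, 15.0% and 7.90% of them.

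The 20 antisense genes with the highest peaks had maxima of 11 to 21, and 18 of these peaks also touched a protein-coding end. In 13 genes that end belonged to the named partner, in 5 to another gene and in 2 there was none. The highest of all was at THUMPD3-AS1 on chromosome 3, at 9396286 to 9397558, where coverage peaked at 21 and the signal summed to 10107. THUMPD3-AS1 is named after THUMPD3, a gene for a tRNA methyltransferase, but starts 34440 bp past that gene's start, and the peak lay at the start of SETD5, a chromatin regulator. The annotated THUMPD3-AS1 promoter window shown above lies inside this peak. It belongs to an annotated start within the gene span, and not to the outer start at 9397494 that was used for the distances.

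Among genes that start within 1000 bp of the partner's start, RALY-AS1 was highest, with 18 at 33993027 to 33994680 on chromosome 20. RALY encodes an hnRNP-family RNA-binding protein, and the starts lie 456 bp apart. HDAC4-AS1, beside the histone deacetylase gene HDAC4, had 17 at 239401201 to 239402211 on chromosome 2. SERTAD3-AS1 had 15 at 40442562 to 40444995 on chromosome 19, a peak with a total signal of 12173, the highest of the 747. ZNF687-AS1 also had 15, with its start 407 bp from that of the zinc finger gene ZNF687. KMT2E-AS1 had 14, and its start lies 64 bp from that of KMT2E, a gene of the lysine methyltransferase family. RBM15-AS1 had 12, 206 bp from RBM15, whose product belongs to the complex that writes m6A. Peaks of 12 were further found at ZNF143-AS1, YWHAH-AS1 and VPS13A-AS1, and of 11 at FBXL19-AS1. All these partners were touched by the same peak at their start. The genes with an unknown strand among the 20 were ITFG2-AS1 with 13, RHPN1-AS1 with 12 and PNN-AS1 with 11.

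Other antisense genes had their peak at the start of a neighbour they are not named after. CBR3-AS1, which spans the carbonyl reductase gene CBR3, had 12 at the start of DOP1B. GCC2-AS1 had 11 at the start of LIMS1, NRSN2-AS1 had 11 at that of SOX12, and ZNF337-AS1 had 11 at that of NANP. FGD5-AS1, an abundant lncRNA named after FGD5 although it starts 137753 bp from that gene's start, had 10 at the start of the nuclear receptor gene NR2C2. MCM3AP-AS1 had 11 at the start of LSS, the gene for lanosterol synthase. That peak was 212 bp wide with a total of 1074, the narrowest of the 747, and a second peak of 4 lay at the same start.

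Of the 29 peaks with a maximum of at least 10, 24 also touched a protein-coding end and 5 did not. LIPE-AS1 starts on chromosome 19 and runs through LIPE, the gene for hormone-sensitive lipase. It had a peak of 17 at 42396282 to 42398063 over its own start, and 23 peaks over its span of 255208 bp. The second peak at the end of MZF1-AS1 had 13. RHPN1-AS1, which lies inside RHPN1, had 12. CIRBP-AS1, named after the cold-inducible RNA-binding protein gene CIRBP, had 10 at 1265002 to 1267168 on chromosome 19, with a total signal of 6871. GPRC5D-AS1 also had 10, at its start on chromosome 12, with a total signal of 1991. Of the antisense starts of known strand with no protein-coding end within 1000 bp, 2 had a peak of at least 10, and these were LIPE-AS1 and GPRC5D-AS1.

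Most antisense genes with a peak at an end had 1 such peak (488 genes), while 98 had 2, 18 had 3 and 3 had 4. The genes with 4 were LAMA5-AS1, EPHA2-AS1 and SSTR5-AS1. At LAMA5-AS1, inside the laminin gene LAMA5, maxima of 6 and 4 lay at the start and 5 and 3 at the end. At EPHA2-AS1, which overlaps the start of the ephrin receptor gene EPHA2, they were 2 and 5 at the start and 4 and 2 at the end. At SSTR5-AS1 all were 2 or 3. Separate peaks at the start and the end, with none shared, were found for 56 genes. The highest was MZF1-AS1 on chromosome 19, which runs through MZF1. It had a peak of 10 at its start, shared with UBE2M, and peaks of 15 and 13 at its end, the first of which covered the start of MZF1. YWHAH-AS1 followed, with 12 and 3 at the start and 2 at the end. KIAA1671-AS1 had 9 at the start and 2 at the end, and DNAAF3-AS1 had 3 and 5 at the start and 8 at the end. NQO2-AS1 was higher at its end, with 8, than at its start beside NQO2, with 4.

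Summits around antisense starts lay about equally often on either side. The median summit lay 29.5 bp downstream of the start (quartiles -265.5 and 542.2 bp, 490 peak-start pairs), and 185 (37.8%) lay within 250 bp. Of the 406 within 1000 bp, 49.5% were downstream (44.7 to 54.4). Peaks were taken from within 1000 bp on both sides of a start, so a median near the start follows in part from that rule. The shares that the rule alone would give were not computed. Where the partner's start was within 1000 bp, 43.9% lay within 250 bp, and with no protein-coding start within 2000 bp 31.5% did. In 155 pairs with both starts within 1000 bp and a peak at the antisense start, the summit of the highest peak was nearer the antisense start in 66 (42.6%, 35.1 to 50.5). The peak covered both starts in 73 (47.1%). With starts at least 500 bp apart the summit was nearer the antisense start in 15 of 37 (40.5%, 26.3 to 56.5). Pairs were taken by a peak at the antisense start and not at the partner's, so equal shares are not a neutral reference for these values.

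**Figure D4:**
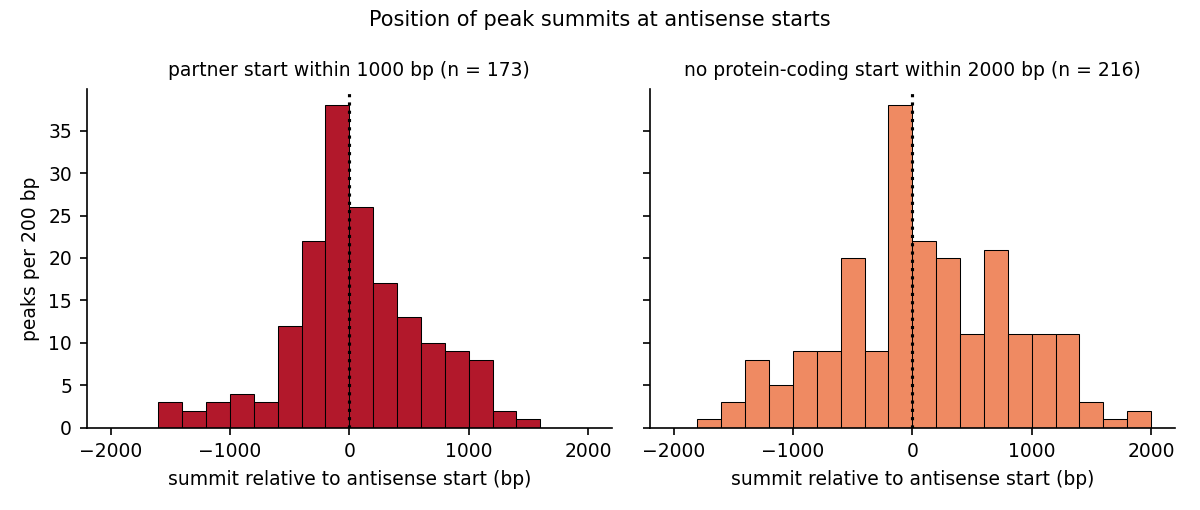
Number of peaks per 200 bp by the position of the summit relative to the antisense start (bp, positive in the direction of antisense transcription), for starts with the partner's start within 1000 bp (left, 173 peak-start pairs) and with no protein-coding start within 2000 bp (right, 216 pairs). Summits within 250 bp make up 43.9% on the left and 31.5% on the right, and 1 summit over 2000 bp away, among all pairs, is not drawn.

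Promoter sequence differed between antisense genes with and without a peak. A peak overlapped the promoter window of 291 of the 1479 antisense genes with strand (19.7%, 17.7 to 21.8), against 29.1% of protein-coding and 7.01% of LINC windows. Median GC content was 66.0% with a peak (quartiles 59.2 and 72.0), against 52.3% without (quartiles 44.3 and 62.3). The median number of CG dinucleotides was 25 with a peak and 6 without. Windows of at least 70% GC were under a peak in 40.9% of 235 antisense genes (34.8 to 47.2), and those under 40% GC in 2.65% of 151 (1.03 to 6.61). At 60 to 70% GC the antisense share was 35.7% (30.8 to 41.0), against 24.2% for LINC (18.8 to 30.4), 26.1% for other lncRNA (23.6 to 28.7) and 40.1% for protein-coding windows (38.8 to 41.4). At 50 to 60% GC it was 13.7% (10.7 to 17.5), against 24.2% for protein-coding (22.8 to 25.7) and 43.0% for divergent lncRNA windows (32.7 to 54.0). At 70% GC or more, protein-coding windows had 35.8% (34.3 to 37.3), LINC windows 31.0% (21.4 to 42.5) and other lncRNA windows 32.1% (28.6 to 35.7). Divergent lncRNA windows showed no rise in the bins from 50% GC upward, with 43.0%, 44.9% and 42.9%. Under 50% GC they were few, with a peak over 0 of 8 under 40% and 3 of 13 at 40 to 50%. Protein-coding windows had a lower share at 70% GC or more than at 60 to 70%, with intervals that do not meet. GC content can also change how well DNA is amplified and sequenced, and its part in these shares was not tested.

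**Figure D5:**
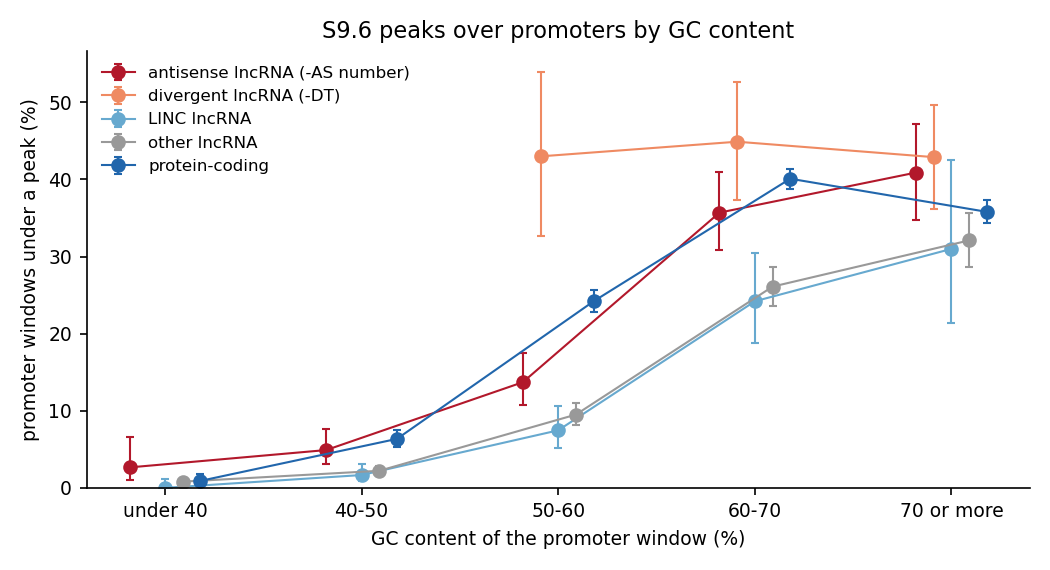
Share of promoter windows (%) under an S9.6 peak by GC content (%) of the window, for 5 gene classes, with 95% Wilson intervals; bins with under 20 windows are not drawn. The antisense share is 2.65% under 40% GC and 40.9% at 70% GC or more.

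In antisense windows, short sequence patterns differed in the same direction as GC content. The letters GGGG on either strand were in 97.9% of antisense windows with a peak, in 88.0% of those without and in 89.0% of all 26246 windows. A G-quadruplex pattern, 4 runs of at least 3 G with 1 to 7 bases between them, was found on either strand in 34.0% of antisense windows with a peak, in 17.3% of those without and in 23.8% of all windows; each such match also holds shorter G runs. On the antisense gene's own strand it was in 16.8% with a peak, against 8.0% without, and on the other strand in 18.9%, against 10.9%. Divergent lncRNA windows went the other way, with the pattern on either strand in 35.6% with a peak and 40.8% without. Protein-coding windows had 33.2% and 28.7%, LINC windows 40.4% and 7.75%, and other lncRNA windows 28.5% and 12.6%. The letters TATAAA on either strand were in 4.47% of antisense windows with a peak, in 11.9% of those without and in 12.1% of all windows. GC skew, the excess of G over C divided by their sum on the antisense gene's strand, had a median of -0.042 with a peak and -0.029 without, and the quartile ranges overlapped almost wholly.

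Groups of antisense genes by the kind of partner differed in how often they had a peak, to be read against the 30.7% of all antisense genes. The kind of partner was read from the first letters of its symbol alone. Symbols of protein and RNA synthesis or turnover genes, such as EIF, PSM, USP or FBX, gave a peak at an end in 17 of 36 cases (47.2%, 32.0 to 63.0). FBXL19-AS1 reached 11, and USP3-AS1 and PSMA3-AS1 reached 5, with the PSMA3-AS1 peak at the start of ARID4A. EIF2AK3-AS1 and FBXW7-AS1 had none. Partners with ZNF, ZSCAN, ZBTB or ZKSCAN symbols gave 26 of 65 (40%, 29.0 to 52.1), with 15 at ZNF687-AS1, 12 at ZNF143-AS1 and 11 at ZNF337-AS1, and none at ZBTB20-AS1 or ZBTB20-AS3. Solute carrier partners gave 15 of 45 (33.3%, 21.4 to 47.9), with 9 at SLC39A13-AS1 and 6 at SLC28A2-AS1 and SLC25A30-AS1, and none at SLC12A5-AS1 or SLC14A2-AS1.

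Shares under 30.7% were found for 3 lists. Antisense genes with symbols of developmental transcription factors had a peak in 9 of 47 cases (19.1%, 10.4 to 32.5), with a maximum of 4 at HOXB-AS1, NKX2-1-AS1 and IRX4-AS1. DLX6-AS1 and FEZF1-AS1 had none. Partners with symbols of ion channels or transmitter receptors, or of proteins that bind to them, gave 6 of 49 (12.2%, 5.73 to 24.2). KCNIP2-AS1 had 6, at the start of OGA, and GRID1-AS2 and CACNB1-AS1 had 3 and 2. CACNA1B-AS1 and CACNA1B-AS2 had none. The list drawn from adhesion and synapse symbols gave 5 of 41 (12.2%, 5.32 to 25.5), with 4 at LRRC59-AS1 and DSCAM-AS1 and 3 at CDH4-AS2. LRRC59, an endoplasmic reticulum protein, came in by its symbol and is not an adhesion gene. CADM1-AS1 and CADM2-AS2 had none. The upper limits for the channel and adhesion lists lay under the 30.7% of all antisense genes. The partner-based lists share no gene, while the cancer list described next shares 20 genes with the developmental list.

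Of 54 antisense lncRNA genes often studied in cancer, 19 had a peak at an end (35.2%, 23.8 to 48.5), with a median maximum of 4. CBR3-AS1 (12), MCM3AP-AS1 (11) and FGD5-AS1 (10) were the highest, each at the start of a neighbour that is not its partner. AFAP1-AS1, known for high levels in lung cancer, had 2 peaks over its span and none at an end, and ADAMTS9-AS2 had none at all. VIM-AS1, whose transcript has been reported to form an R-loop at the vimentin promoter, had 1 peak over its span and none at an end. CDKN2B-AS1 was looked at because A549 is known to lack this part of chromosome 9. No peak was listed over CDKN2B-AS1, CDKN2A, CDKN2B or MTAP, and the nearest peaks lay 209151 bp below and 63569 bp above CDKN2B-AS1. DMRTA1, which lies beyond the nearest peak above, had no peak either. Lack of a peak was common, as 1367 of 1974 antisense genes had none at an end. These values therefore cannot show whether the region is missing.

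Chromosomes differed. Chromosome 19 had a peak at an end of 47 of its 84 antisense genes (56.0%, 45.3 to 66.1), chromosome 17 of 45 of 85 (52.9%, 42.4 to 63.2) and chromosome 22 of 21 of 42 (35.5 to 64.5%). The lowest shares were 10 of 70 on chromosome 13 (14.3%, 7.95 to 24.3), 14 of 83 on chromosome 4 (16.9%, 10.3 to 26.3) and 35 of 184 on chromosome 3 (19%, 14.0 to 25.3). Protein-coding genes of the same chromosomes had shares of 51.3% on 19, 54.7% on 17, 59.2% on 22, 29.3% on 13, 22.9% on 4 and 33.1% on 3. The antisense share was higher than the protein-coding one on chromosome 19 and also on chromosome 6, with 23 of 105 (21.9%, 15.1 to 30.7) beside 16.7%, and lower on the other 20. On chromosomes 19 and 6 the antisense interval included the protein-coding share, so neither excess was resolved. Among the lower shares, the interval lay wholly under the protein-coding share on chromosomes 3, 8, 9, 11, 13, 15 and 16. On the rest, chromosomes 4, 17 and 22 among them, it included that share, so the difference was not resolved.

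At the limit of 1000 bp, the peaks just inside lay 995 bp from DHRS4-AS1 and 991 bp from TNS1-AS1, each with a maximum coverage of 3. Those just outside lay 1001 bp from ATXN7L3-AS1, with 5, and 1002 bp from SKOR1-AS1, with 3. So few peaks cannot show whether heights differ across the limit.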

How the data were processed

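The S9.6 peak list of 1 CUT&Tag library was used. Per the submitters' processing notes, the tools were SEACR 1.3, deepTools 3.5.2, bedtools 2.30.0, SAMtools 1.9, Bowtie2 2.4.2 and fastp 0.23.2, with GRCh38. Nothing used here states their settings, the peak threshold, the use of IgG or how duplicates and repeats were handled. The deposited values are a total signal and a maximum coverage per peak, read as such from the layout and the values: whole numbers with no sign of scaling. The total was at most width times maximum in 44994 of 44994 peaks. Sequencing depth is unknown, so a gene without a peak may hold signal under the authors' threshold. Near-identical gene copies could share reads.

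Gene spans came from RefSeq GRCh38.p14, and strand and promoters from its promoter table, which matched 1479 of 1974 antisense genes. For 1 window per gene, the start nearest the outer end of the span was used. Opposite-strand windows that overlapped were reverse complements in 2696 of 2696 pairs. Python 3.11.15, pandas 2.3.3 and statsmodels 0.14.6 were used, and the interval join was tested on simulated data. Genes were named by rule: the 20 highest, those with most peaks or separate peaks at both ends, the 3 highest and first 2 without a peak of each of 7 lists, and the extreme peaks by total signal and width. GPRC5D-AS1, CIRBP-AS1, VIM-AS1, the same-strand pairs, and the genes beside the starts or just outside the window were named after their values were seen. Members and lists were chosen with earlier results of these data known.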

Additional observations from a re-analysis of the deposited data

Results flagged for a closer look

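Chromosome X lay outside the comparisons above. Of its 50 antisense lncRNA genes, 9 had a peak at an end (18.0%, 95% Wilson interval 9.77 to 30.8), which is above the 6.0% that 3 of 50 genes would give. These were 10 peaks with a median maximum coverage of 3 and a highest of 6. The 6.0% is a fixed floor of 3 genes and not a measured background. Shares of other gene classes on chromosome X were not computed, and no control library was analysed. No background level for this chromosome is therefore given beside the 18.0%. The 30.7% of antisense genes in the comparisons above lay just inside its interval.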

How the results depend on the processing

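The start share stayed above the end share under the 8 alternatives run for both. The number of peaks at antisense genes, 747, ranged over 511 to 987 under the same alternatives, within 1.5 times. The share of antisense genes with a peak, 30.7%, became 25.4% with windows of 500 bp, 36.5% with 2000 bp, 27% by summit, 27.2% with at least as much of the peak inside the window as outside, 23.6% with peaks of maximum coverage 3 or more, 22.8% with the peaks above the median in total signal, and 20.8% without genes within 1000 bp of a protein-coding end. The start share, 29.1%, became 24.4%, 33.6%, 25.6%, 25.7%, 22.9% and 22.3% under the first 6 of these in the same order, and the end share, 10.2%, became 6.56%, 16.9%, 7.78%, 7.78%, 6.69% and 6.56%. The share of peaks also at a protein-coding end, 52.6%, became 48.9% with 500 bp, 48.7% under that overlap rule, 58.4% with maximum 3 or more and 60.3% with the peaks above the median total. The share at the named partner, 41.8%, became 46.2% with 2000 bp, 37.8% under that overlap rule, 46.1% with maximum 3 or more and 47.4% with the peaks above the median total. The median maximum, 3, was 4 in both sets of higher peaks. These sets and windows hold fewer or more bases or peaks by construction. Adding chromosome X, or symbols ending in -AS without a number, gave 757 and 760 peaks and moved no share past its interval. No paired analysis was possible because there is 1 library with a peak list. Depth limits the list: most peaks rest on a maximum coverage of a few fragments, so weakly covered genes cannot be told apart from genes without signal.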

Other observations

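The widest of the 747 peaks lay at HEXIM2-AS2 on chromosome 17, at 45170242 to 45173120, with a width of 2879 bp and a maximum coverage of 5. It touched the 3′ end of HEXIM2, a gene for an inhibitor of the elongation factor P-TEFb. TOB1-AS1 followed with 2821 bp and a maximum of 8 at the start of TOB1, an antiproliferative gene, and RUSC1-AS1 with 2484 bp and a maximum of 8 at no protein-coding end. By total signal the highest peaks were those of SERTAD3-AS1 (12173), KMT2E-AS1 (10641) and MZF1-AS1 (10304).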
